A study of Danio rerio with 2 samples.

Results

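Zinc and copper are needed by many enzymes and are toxic when free, so cells move them through dedicated membrane proteins and keep them bound inside. Zinc transporters of the SLC30 family (ZnT) carry zinc out of the cytosol, across the cell surface or into vesicles and organelles. Those of the SLC39 family (ZIP) carry it into the cytosol. Copper enters through SLC31 proteins, is passed on by small chaperones and is exported by the ATPases ATP7A and ATP7B. Metallothioneins are cysteine-rich proteins that bind both metals, and the zinc-sensing transcription factor MTF1 switches on metallothionein and the surface exporter ZnT1. In fish, metallothionein transcripts are a widely used marker of metal exposure.

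The genes of this system were taken from the deposited table by symbol, as the slc30, slc39 and slc31 families, the metallothionein genes mt2 and mtbl, mtf1, atp7a, atp7b, atox1 and ccs. The symbols matched 30 gene models with 29 distinct symbols among 22849 models in the table. All 30 had a sum of both values of at least 10, the minimum for comparison, as did 21764 models of the table, and the lowest sum among the 30 was 21. They comprised 10 slc30 genes, 10 slc39 genes, 7 copper genes and the 3 genes mt2, mtbl and mtf1.

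RNA came from whole wild-type zebrafish (Danio rerio) larvae of strain AB, collected at 6 days post fertilization (dpf). One group had been kept in benzo[a]pyrene (BaP, 1 μM) and the other in dimethyl sulfoxide (DMSO, 0.1%), each between 3 and 6 dpf. BaP is a combustion product that activates the aryl hydrocarbon receptor, and DMSO is a solvent. The labels do not say whether the BaP water also held DMSO. Each group was 1 library from RNA of 4 pooled biological replicates, so a difference between the groups has no replicate check, and no p-value is given. The study concerns the toxicity of BaP to bone, and the data contrast transcript levels of exposed and solvent-treated larvae.

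Values are normalized read counts that the authors scaled and rounded to whole numbers. They summed to 13443263 under DMSO and 11968060 under BaP, which corresponded to about 19804000 and 21996000 estimated reads. A fold is the ratio of the normalized read counts of both libraries, given with a 95% interval that covers counting error only. The detoxification gene cyp1a, a target of the aryl hydrocarbon receptor, had 650 normalized reads under DMSO and 17859 under BaP, in the direction the labels imply. Markers of several tissues differed between these whole-larva libraries, and fewer cells of a type cannot be told apart from less RNA per cell.

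Zinc transporter, copper transporter and metallothionein genes differed little between the libraries, as did most compared genes. Of the 30 gene models, 26 differed by less than 1.5-fold, and of all 21764 compared genes 17279 did. At a fold of at least 2, 1 was higher in the BaP library and 0 were lower, where 3.75% of all compared genes were higher and 4.36% lower by that fold. At a fold of at least 1.5, 1 was higher and 3 were lower, against 9.12% and 11.5% of all genes. The single model past 2-fold was a copy of ccs with 7 and 17 normalized reads. The median log2 ratio, BaP over DMSO, was 0.09 for the 30 models and -0.06 for all genes, and the median size of the log2 ratio regardless of sign was 0.27 and 0.26. In sum the 30 models had 6330 normalized reads under DMSO and 6862 under BaP, 1.08-fold higher.

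Within this narrow range, 16 models had a ratio above 1, 13 had a ratio below 1 and 1 had equal values. Of all genes 41.5% lay above 1 and 56.4% below. When both libraries were scaled to the same total (log2 ratio of the totals -0.17), the split among the 30 became 21 above and 9 below. That scaling raises the ratio of every gene alike. The split of all genes under it is not given here, so the shares just given do not apply to it. The counting interval lay wholly above 1 for 10 models and wholly below for 4, against 18.1% and 26.2% of all genes, and for 16 it included 1. Among the 18 models with at least 100 normalized reads in both libraries, 0 reached 1.5-fold in either direction, where 12.2% of all genes that abundant did. This contrast depends on the scaling. With equal totals, slc31a2 and atox1 of the 18 were past 1.5-fold, with ratios of 1.55 and 1.51, and the share of 12.2% does not apply to that scaling.

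**Figure D1:**
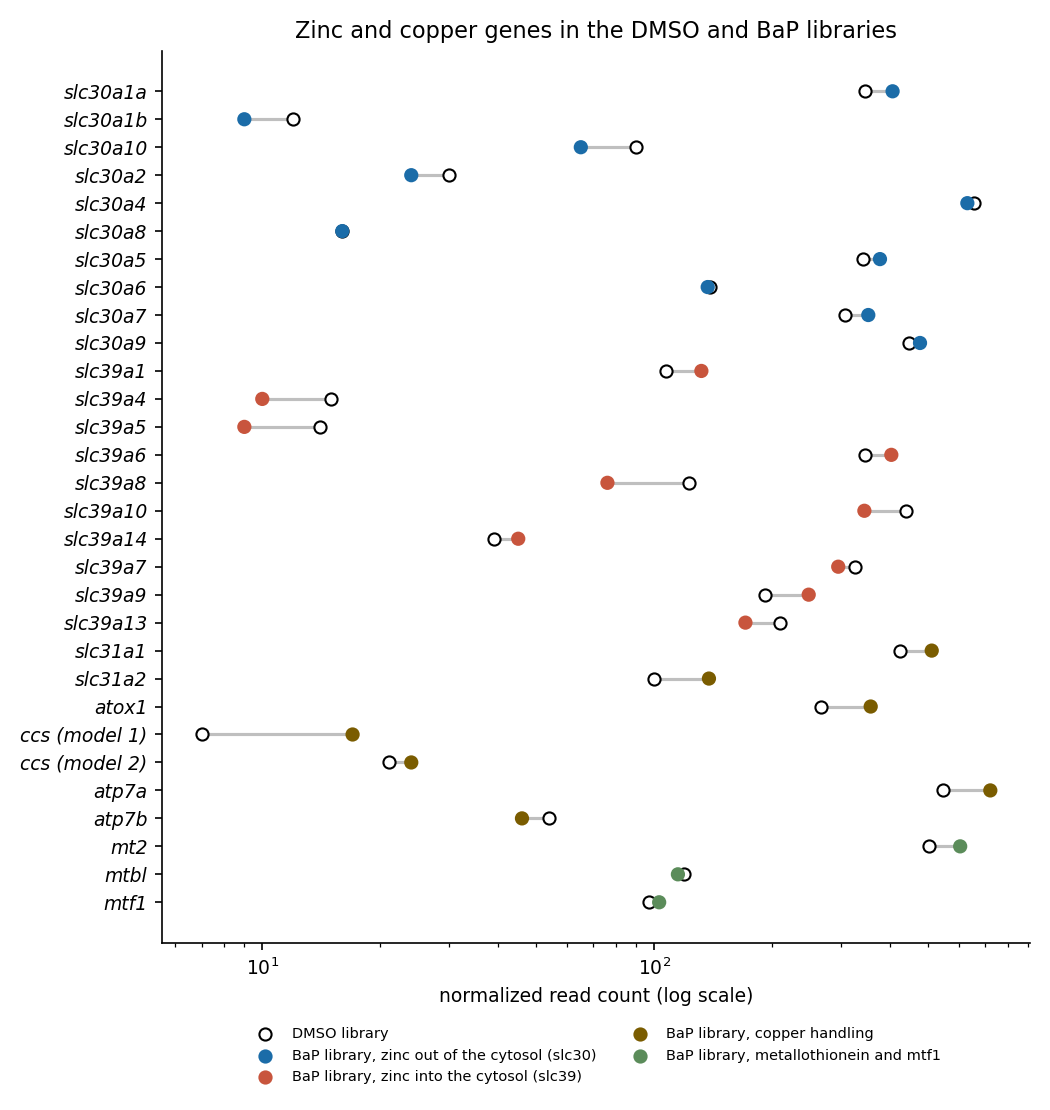
Normalized read count (log scale) of each zinc and copper gene, with the DMSO library as open circles and the BaP library as filled circles coloured by group. Both circles lie close together for most genes, and the widest gap is that of the first ccs model, with 7 and 17 normalized reads.

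The slc30 genes, whose products move zinc out of the cytosol, had a median log2 ratio of -0.01 (0.16 with equal totals), and 0 of 10 reached 1.5-fold. Their values summed to 2382 under DMSO and 2493 under BaP. The gene slc30a1a (ENSDARG00000005463, chromosome 20, 13894123 to 13913790) encodes the surface exporter ZnT1, whose mammalian counterpart is a direct MTF1 target. It had 345 normalized reads under DMSO and 406 under BaP, 1.18-fold higher (95% interval 1.05 to 1.32). Its first 794 bases overlap nek2 on the same strand, which had 20 and 31 normalized reads. The second copy of this exporter, slc30a1b, had 12 and 9 normalized reads, and its interval included no difference (0.32 to 1.72 for the ratio, BaP over DMSO).

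The gene slc30a10, whose human counterpart exports manganese, stood lowest in the family. It had 90 normalized reads under DMSO and 65 under BaP, 1.38-fold lower (1.06 to 1.81), but with equal totals its ratio interval of 0.62 to 1.06 included no difference. The transporters that fill vesicles lay closer to equality. The gene slc30a4 had 655 and 630 normalized reads (1.04-fold lower, ratio interval 0.88 to 1.05), but it overlaps 2 genes of the opposite strand, spata5l1 and zgc:153317, the latter with 12 and 83 normalized reads. The insulin granule transporter gene slc30a8 had 16 normalized reads in each library. The gene slc30a2, which is active in secretory glands of mammals, had 30 and 24.

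The exporters of the early secretory pathway load zinc into enzymes such as alkaline phosphatase, with ZnT5 and ZnT6 working as a pair and ZnT7 alone. For slc30a5 the values were 341 and 377 normalized reads, a ratio of 1.11 (0.98 to 1.25). For its partner gene slc30a6 they were 139 and 137, a ratio of 0.99 (0.81 to 1.2). The gene slc30a7 had 307 and 352, 1.15-fold higher (1.01 to 1.30). The mitochondrial transporter gene slc30a9 had 447 and 477, a ratio of 1.07 (0.96 to 1.18). These 4 genes thus all lay within 1.15-fold of equality, with narrow intervals.

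The slc39 genes, whose products bring zinc into the cytosol, had a median log2 ratio of -0.22, and 6 of 10 had a ratio below 1, where 56.4% of all genes did. The sign of this median is not settled, since it was 0.03 with a minimum sum of 50. With equal totals it stayed negative, at -0.05. Their sum was 1811 normalized reads under DMSO and 1733 under BaP. At 1.5-fold, 0 were higher and 3 lower, against 9.12% and 11.5% of all genes, and of the 3 slc39a4 and slc39a5 rest on at most 15 normalized reads. With equal totals 0 were lower. The interval lay below 1 for slc39a8, slc39a10 and slc39a13. The gene slc39a8 (ENSDARG00000056757, chromosome 13, 11690277 to 11699530) encodes ZIP8, which in mammals carries zinc, manganese and cadmium. It had 123 normalized reads under DMSO and 76 under BaP, 1.62-fold lower (1.28 to 2.06), and was the only model past 1.5-fold in either direction with a sum above 50 normalized reads.

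The genes slc39a6 and slc39a10 encode ZIP6 and ZIP10, which form a joint channel in mammals and act in cell movements of the zebrafish gastrula. They differed in opposite directions. The values were 345 and 403 normalized reads for slc39a6, 1.17-fold higher (1.04 to 1.31). They were 440 and 344 for slc39a10, 1.28-fold lower (1.14 to 1.43). The end of slc39a10 overlaps dnah7 of the opposite strand by 534 bases.

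The other surface importers included the low genes of the set. The intestinal zinc uptake gene slc39a4 had 15 and 10 normalized reads, 1.5-fold lower, with a ratio interval of 0.31 to 1.41. The gene slc39a5, a transporter of pancreas and intestine in mammals, had 14 and 9, 1.56-fold lower, with 0.28 to 1.41. A difference of this size was not detectable at this depth, since both intervals include equality. The genes slc39a1 and slc39a14 had ratios above 1, with 107 and 132 normalized reads for slc39a1 (0.997 to 1.53) and 39 and 45 for slc39a14 (0.80 to 1.69).

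Of the ZIP proteins on internal membranes, ZIP7 releases zinc from the endoplasmic reticulum, and slc39a7 had 326 and 295 normalized reads, a ratio of 0.90 (0.80 to 1.03). The gene slc39a9 had 192 and 248, 1.29-fold higher (1.11 to 1.51). The gene slc39a13 encodes ZIP13, loss of which causes a connective tissue disorder of skin and skeleton in humans. It had 210 and 171, 1.23-fold lower (1.04 to 1.45), but the ratio interval included no difference with equal totals (0.78 to 1.08) and reached 1.001 by the median of ratios. Markers of cartilage and bone differed by more. Of 11 compared, 0 were higher and 9 lower by at least 2-fold, against 3.75% and 4.36% of all genes. The markers summed to 44627 normalized reads under DMSO and 19342 under BaP. Their part in the value of slc39a13 was not tested.

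**Figure D2:**
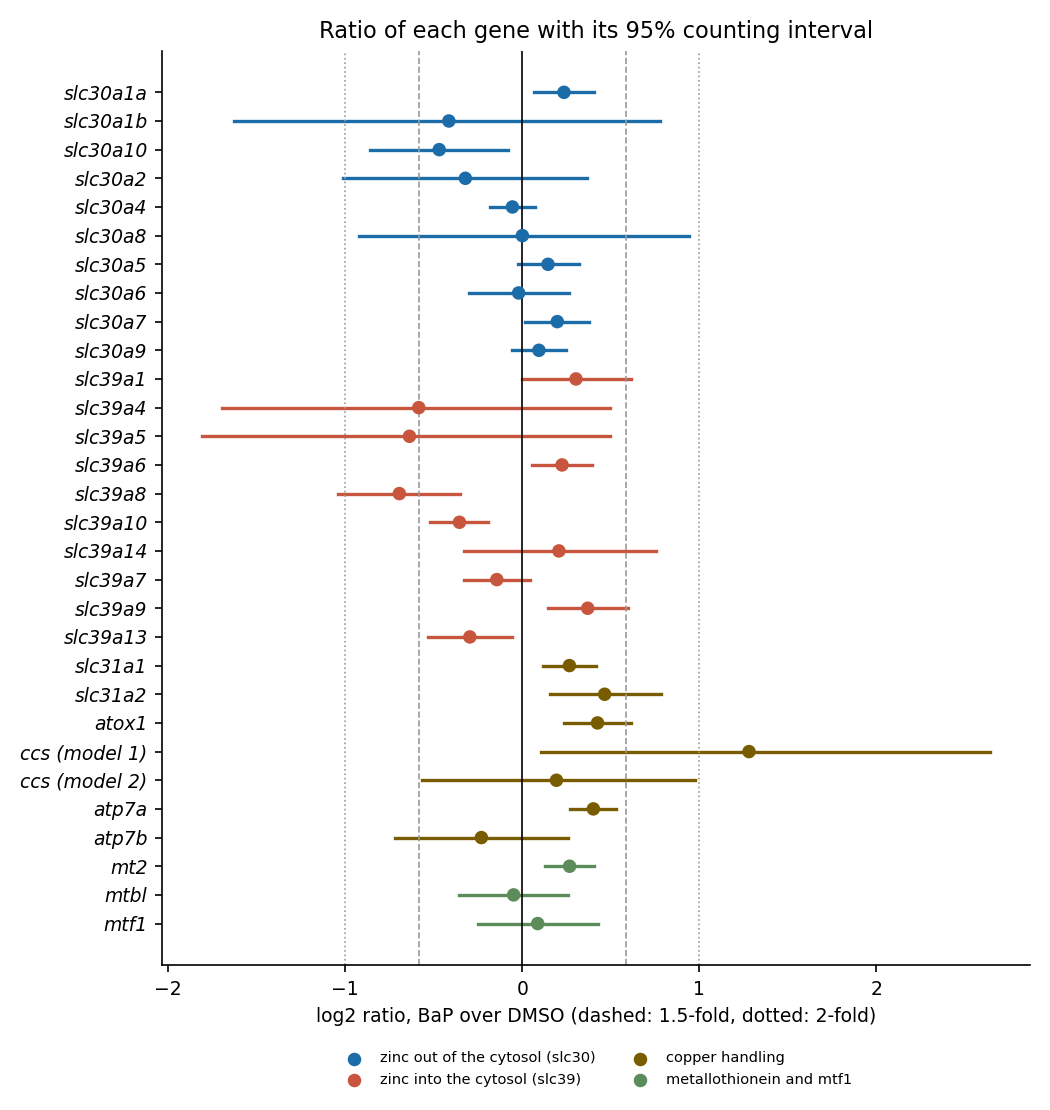
Log2 ratio of normalized read counts, BaP over DMSO, for each zinc and copper gene, with its 95% counting interval as a line and the 1.5-fold and 2-fold marks as dashed and dotted lines. The slc30 points lie between -0.47 and 0.23, the slc39 points between -0.69 and 0.37, and 6 of 7 copper points lie above 0.

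Copper genes stood slightly higher in the BaP library, with 6 of 7 models above a ratio of 1, where 41.5% of all genes lay, and a median log2 ratio of 0.40. Their values summed to 1419 normalized reads under DMSO and 1814 under BaP, 1.28-fold higher. For 5 of 7 the counting interval lay above 1, against 18.1% of all genes. One of the 5 is the first ccs model, and with a minimum sum of 50, which leaves out both ccs models, 4 intervals lay above 1. The other copper genes stayed under 1.5-fold, except slc31a2 and atox1 with equal totals. Variation between separate groups of larvae was not measured, and these differences cannot be set against it.

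By step of the route, the copper importer gene slc31a1 (ENSDARG00000013961, chromosome 5, 57328535 to 57354915), which encodes CTR1, had 425 normalized reads under DMSO and 511 under BaP, 1.202-fold higher (1.08 to 1.34). Its relative slc31a2, which acts on endosomes and lysosomes, had 100 and 138, 1.38-fold higher (1.11 to 1.72). The chaperone gene atox1 (ENSDARG00000087693, chromosome 14, 25982962 to 25985762), whose product hands copper to the export ATPases, had 266 and 357, 1.34-fold higher (1.18 to 1.53). These steps of uptake and hand-over all had the higher value in the BaP library.

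The export ATPases differed from each other. The gene atp7a (ENSDARG00000003699, chromosome 14, 22397251 to 22443502), affected in human Menkes disease and in the zebrafish mutant calamity, had 546 and 721 normalized reads, 1.32-fold higher (1.21 to 1.45). The gene atp7b, affected in Wilson disease and active in liver, had 54 and 46, with a ratio of 0.85 (0.607 to 1.196). Liver markers differed by more. Of 14, 0 were higher and 7 lower by at least 2-fold, against 3.75% and 4.36% of all genes. The markers summed to 80926 normalized reads under DMSO and 38598 under BaP. A large part of both sums came from fetub, with 33082 and 9388. The gene fabp10a, the 1 marker with a ratio above 1, had 8255 and 8416 (ratio 1.02, 0.995 to 1.04). Both genes were named with their values known. None of the 14 markers was at 0, and the part of these markers in the value of atp7b was not tested.

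The chaperone gene ccs, whose product loads copper into superoxide dismutase, is present as 2 gene models on chromosome 7, 58476 bases apart, while the RefSeq table of assembly GRCz12tu lists 1. The first (ENSDARG00000116246, 6915609 to 6932033) had 7 and 17 normalized reads, 2.43-fold higher with an interval of 1.07 to 6.25. The second (ENSDARG00000092003, 6990510 to 7011961) had 21 and 24, a ratio of 1.14 (0.68 to 1.96), and lies within the bounds of actn3b and rbm14b on the same strand. How reads shared between such copies were counted was not given in the sources used here, so the values of both are uncertain. Added together they had 28 and 41 normalized reads, a ratio of 1.46 with an interval of 0.96 to 2.27, which includes no difference.

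The metallothionein genes and mtf1 all differed by less than 1.5-fold. The gene mt2 (ENSDARG00000041623, chromosome 18, 17534627 to 17535979) had 502 normalized reads under DMSO and 604 under BaP, 1.203-fold higher (1.09 to 1.32). The second metallothionein gene, mtbl (ENSDARG00000102051, chromosome 7, 29148714 to 29149228), had 119 and 115, with a ratio of 0.97 (0.781 to 1.198). Their regulator gene mtf1 had 97 and 103, with a ratio of 1.06 (0.84 to 1.34). The highest upper bound among the 3 genes was 1.34, that of mtf1, but the bounds depend on the scaling. With equal totals mt2 was 1.35-fold higher (1.23 to 1.49), and the upper bound of mtf1 was 1.51. These bounds do not cover differences between animals.

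**Figure D3:**
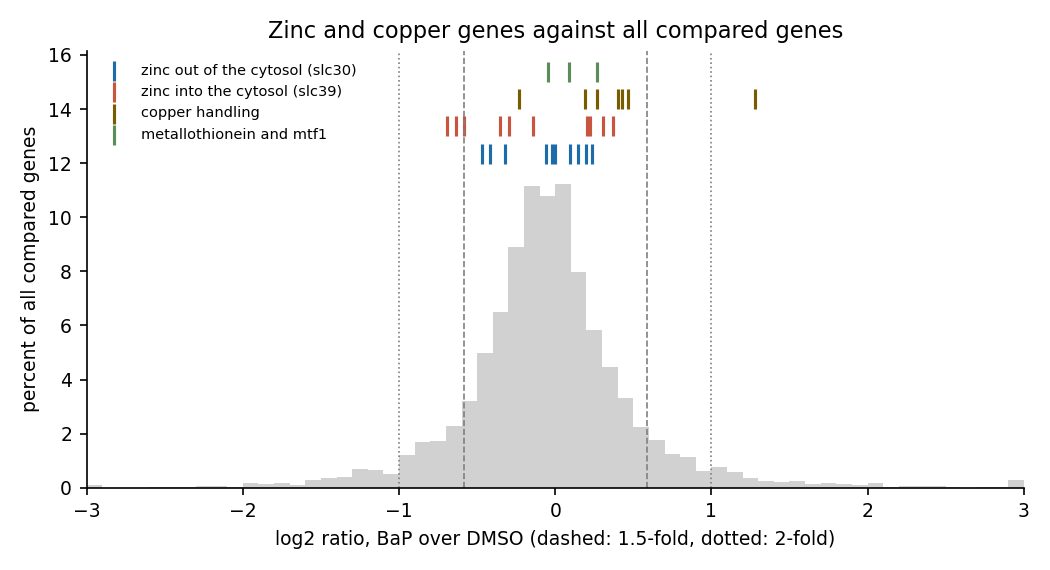
Distribution of the log2 ratio, BaP over DMSO, over 21764 compared genes (grey bars, percent of genes per bin, the outermost bins also holding all ratios beyond 3 in size), with each zinc and copper gene as a coloured tick above. The ticks fall in the body of the distribution, and 1 lies beyond the dotted 2-fold lines.

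Stress genes that respond to metals as well as to oxidants included larger differences than the metallothionein genes. Of 10 such genes, 7 were higher and 1 lower under BaP by 2-fold or more, against 3.75% and 4.36% of all genes. The median log2 ratio of the 10 was 1.15. Most are known targets of the oxidant-sensing factor Nrf2, and several belong to glutathione and thioredoxin metabolism. The farthest were the chaperone gene hsp70l, the thioredoxin gene txn, the cystine transporter gene slc7a11 and nfe2l2b, the less abundant Nrf2 gene of the list. They were between 4.27-fold and 9.38-fold higher. The largest fold, that of hsp70l, rests on 8 normalized reads under DMSO and 75 under BaP (4.91 to 20.6). The lower gene was the heme oxygenase gene hmox1a, at 2.84-fold. Further members were picked with their values known. The genes gclc and gclm, for the subunits of the enzyme that starts glutathione synthesis, had 597 and 1284 and 178 and 383 normalized reads, both 2.15-fold higher. The glutathione reductase gene gsr had 480 and 1098, 2.29-fold higher (2.10 to 2.50). The sulfiredoxin gene srxn1 had 15 and 18. The more abundant Nrf2 gene, nfe2l2a, had 2114 and 3154, 1.49-fold higher (1.43 to 1.56). Beside these, mt2 was 1.203-fold and slc30a1a 1.18-fold higher, and the difference between the lists was not tested.

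Genes that use or deliver copper differed in both directions. Of 24 measured, from 26 listed, 3 were higher and 2 lower by at least 2-fold, against 3.75% and 4.36% of all genes. The median log2 ratio of the 24 was 0.09. The farthest was cox17 (ENSDARG00000069920), whose product carries copper to the assembly of mitochondrial cytochrome c oxidase, with 206 normalized reads under DMSO and 941 under BaP, 4.57-fold higher (4.03 to 5.19). The gene cox11, for the protein that inserts copper into that enzyme, had 74 and 246, 3.32-fold higher (2.67 to 4.18). The lysyl oxidase gene loxa, for a copper enzyme that crosslinks collagen, had 162 and 376, 2.32-fold higher (1.99 to 2.71). Its more abundant relative loxl1, named with its values known, had 991 and 631, 1.57-fold lower (1.45 to 1.70). Among the lower genes, the ferroxidase-like gene hephl1b had 45 and 16, 2.81-fold lower (1.73 to 4.72). The more abundant hephl1a had 109 and 119, a ratio of 1.09 (0.88 to 1.36). The pigment enzyme gene tyr had 63 and 31, 2.03-fold lower (1.41 to 2.95). Both hephl1a and tyr were named with their values known.

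The copper carriers next to cox17 and cox11 lay near equality, with 185 and 215 normalized reads for sco1 and 64 and 58 for cox19, both picked once the values were known. The gene sod1, which receives copper from the ccs product, had 781 and 1078, 1.38-fold higher (1.28 to 1.49), also picked afterwards. Likewise the plasma ferroxidase gene cp, a liver product loaded with copper by ATP7B in mammals, had 1262 and 634, 1.99-fold lower (1.85 to 2.15). It is one of the liver markers described above, of which 13 of 14 had a ratio below 1, where 56.4% of all genes did.

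Of 16 zinc-linked genes, 2 were higher and 0 lower by at least 2-fold, against 3.75% and 4.36% of all genes. The median log2 ratio of the 16 was -0.08. The 2 higher genes were gclc and gclm, which also stand in the stress list, so this count is not a separate result. The alkaline phosphatases, zinc enzymes of the secretory pathway, had lower values in the BaP library, with 407 and 349 normalized reads for alpl, 75 and 47 for alpi.1 and 189 and 119 for alp3. The zinc receptor gene gpr39 had 877 and 462, 1.90-fold lower (1.74 to 2.08). In the other direction, the carbonic anhydrase genes cahz and ca2 had 390 and 615 normalized reads (1.58-fold higher, 1.42 to 1.75) and 195 and 244 (1.25-fold higher, 1.07 to 1.46). The other carbonic anhydrase genes of the list lay near equality. The values were 214 and 202 for ca4a (ratio 0.94, 0.81 to 1.11) and 1300 and 1238 for ca6 (ratio 0.95, 0.895 to 1.01). Over the list, 4 of 16 intervals lay above 1 and 4 below, against 18.1% and 26.2% of all genes. The genes of this list named here, other than gclc and gclm, were picked with their values known. The intestinal form alpi.1 stands beside intestine markers, of which 1 of 11 was higher and 4 lower by at least 2-fold, with sums of 22050 and 15902 normalized reads and none at 0. The part of the intestine in its value, and in that of slc39a4, was not tested.

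Other tissue markers give the setting of the tissue-bound transporters. Their counts stand against 3.75% of all compared genes higher and 4.36% lower by at least 2-fold. Of 15 exocrine pancreas markers 0 were higher and 12 lower by at least 2-fold, with sums of 343141 normalized reads under DMSO and 140433 under BaP. The gland transporters slc30a2 and slc39a5, at 1.25-fold and 1.56-fold lower, rest on at most 30 normalized reads, and the part of the pancreas in them was not tested. Of 13 endocrine islet markers 0 were higher and 1 lower, with sums of 8240 and 7930. The lower one was the insulin gene ins, with 188 and 84 normalized reads (2.24-fold lower, 1.82 to 2.77). The interval lay below 1 for 4 of the 13 and above 1 for 0, against 26.2% and 18.1% of all genes. Among the 4 was gcga, with 78 and 53 normalized reads. A large part of both islet sums came from neurod1, with 3434 and 3487, and scg3, with 2494 and 2338. The sums therefore say little about the less abundant islet markers. The genes gcga, neurod1 and scg3 were named with their values known. The insulin granule transporter gene slc30a8 had equal values, but on 16 normalized reads in each library. The part of the islet in its value was not tested. Of 12 neuron markers 0 were higher or lower by 2-fold, with sums of 33361 and 31437. No marker of these 3 lists was at 0 in either library. Of the lists that bear on no single transporter here, 5 of 8 compared red cell markers were higher by at least 2-fold, and 3 of 10 skeletal muscle and 6 of 11 epidermis and ionocyte markers were lower, with 0 in the other direction.

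**Figure D4:**
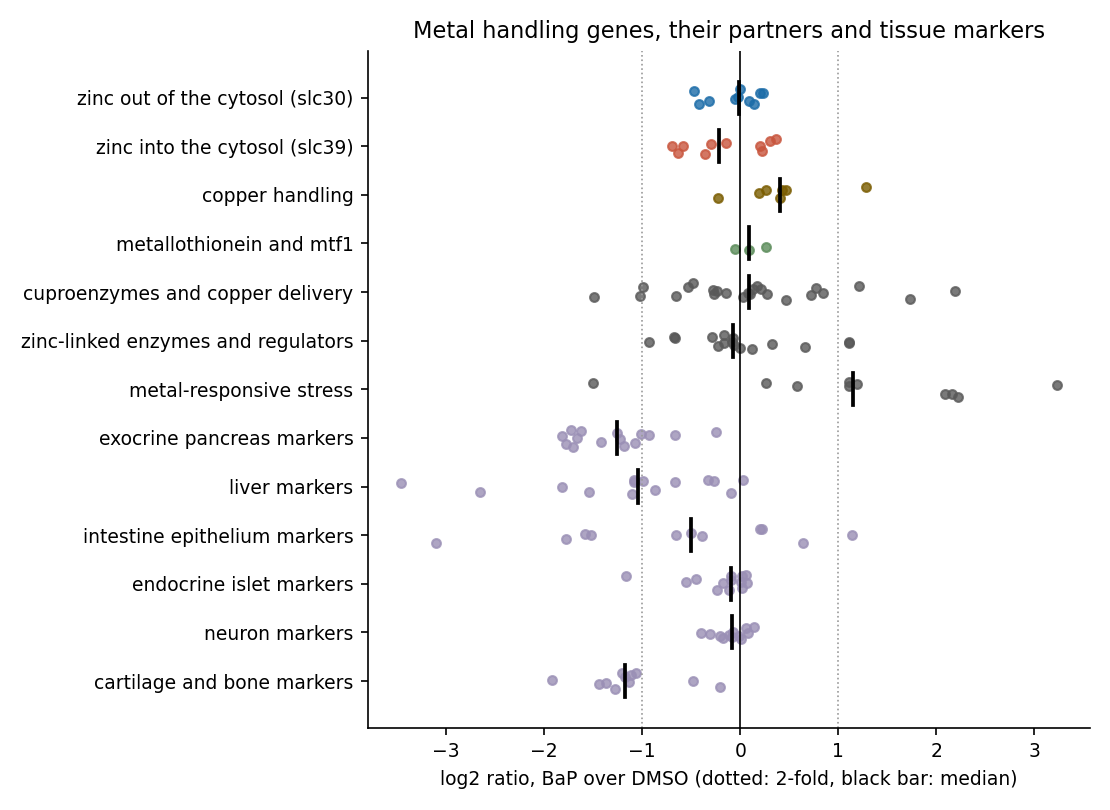
Log2 ratio, BaP over DMSO, of each compared gene (points, spread vertically only to separate them) in the zinc and copper groups, the lists of partner genes and 6 lists of tissue markers, with the median of each list as a black bar. The slc30 group centres at -0.01, the slc39 group at -0.22 and the copper group at 0.40. The metal-responsive stress list centres at 1.15 and the exocrine pancreas markers at -1.26.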

How the data were processed

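Whole-larva mRNA of 2 libraries, DMSO and BaP, was measured by stranded RNA-seq, per the labels' protocols. The submitters' processing notes name, without role or order, Trimmomatic 0.38, STAR 2.6.1d, featureCounts 1.6.3, Subread and as builds GRCz11 and danRer11. The table gives coordinates and names no build. Use of the strand in counting was not given in the sources used here. In the table, deposited values are a score, namely read counts that the authors scaled and rounded, and the scaling method is not stated.

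The scaling factor of each library was estimated by maximum likelihood from the frequencies of the values from 2 to 250, as 0.6788 (DMSO) and 0.5441 (BaP). Values divided by it are the estimated reads. Intervals are Clopper-Pearson intervals at 95% on these reads, given their sum and widened for rounding. They cover counting error only. Reads have no molecular identifiers. The procedure was tested on simulated data. Genes with a sum of both values of at least 10 were compared, and a gene counted as higher or lower at a fold of 2 or 1.5, without a test. No gene was at 0 among those named.

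The members and lists were chosen with earlier results of these data known. The naming rule took all members, members of the other lists past 2-fold or the most abundant ones, and cyp1a. Tissue lists are given as counts. The plan for raw counts was replaced by ratios of normalized values, as it provided. Promoter motifs and sequences were not analysed here. Of the 30 models, 30 matched the name table by gene ID. Alternatives were other filters, scalings, pseudocounts and a lowess trend. Software was matplotlib 3.10.9, statsmodels 0.14.6, pandas 2.3.3, scipy 1.17.1 and numpy 2.4.6 under Python 3.11.15.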

Additional observations from a re-analysis of the deposited data

How the results depend on the processing

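The counts of members past a fold are so low that single genes move them. With a minimum sum of 50, 0 members were higher by 2-fold, 0 were higher by 1.5-fold and 1 was lower. With both libraries scaled to the same total, 3 were higher and 0 lower by 1.5-fold, and 2 instead of 4 intervals lay below 1, without those of slc30a10 and slc39a13. By the median of ratios and with the expression trend removed, 1 was lower by 1.5-fold. A pseudocount of 5 left 0 higher by 2-fold and 1 lower by 1.5-fold. With both ccs models added together, an alternative chosen after seeing the data, 0 were higher by 2-fold or by 1.5-fold. The slc30 median of -0.01 became 0.16 with equal totals, 0.05 by the median of ratios, 0.07 without the trend and 0.04 with a minimum sum of 50, and the slc39 median of -0.22 became 0.03 with that minimum, so the sign of neither is settled. The copper median was between 0.40 and 0.57 under all alternatives run. Taking the deposited values as reads left 10 instead of 14 intervals that excluded equality. No paired analysis was possible because each treatment has 1 library, and no replicate could be left out for the same reason. Depth limits slc30a1b, slc30a2, slc30a8, slc39a4, slc39a5, slc39a14 and both ccs models, whose intervals span more than 2-fold.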

Other observations

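The assembly of cytochrome c oxidase, the copper and heme enzyme that ends the respiratory chain, held the copper-linked genes with the largest differences, and its other assembly factors were looked up after those values had been seen. Of 21 assembly factors in the table, 9 were higher and 0 lower under BaP by 2-fold or more, with a median log2 ratio of 0.74. Without cox17 and cox11, which prompted the list, 7 of 19 were higher and 0 lower, against 3.75% and 4.36% of all genes. Besides cox17 and cox11, the heme A synthase gene cox15 had 164 normalized reads under DMSO and 732 under BaP (4.46-fold higher, 95% interval 3.88 to 5.16). The gene coa3a had 104 and 390 (3.75-fold), and surf1, affected in human Leigh syndrome, had 164 and 595 (3.63-fold). The genes cox14 (62 and 181), cmc2 (154 and 421), cox20 (56 and 138) and coa5 (59 and 129) were higher by between 2.19-fold and 2.92-fold. The genes cox18, cox19 and taco1 had ratios below 1, with intervals that include no difference.

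The subunits of the enzyme itself did not share this difference in size. Of 18 subunit genes of the nuclear genome 0 were higher or lower by at least 2-fold, with a median log2 ratio of 0.04, and their values summed to 15857 and 16774 normalized reads. The mitochondrial gene mt-co1, for the subunit that holds a copper and heme centre, had 266934 and 354490 normalized reads, and mt-co2, for the subunit with the other copper centre, had 105691 and 122886. The third subunit gene of the mitochondrial genome, mt-co3, had 90868 and 90133. The difference between assembly factors and subunits was not tested, and the lists were chosen with the values known.

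Of the 22 compared genes that the table annotates with copper ion binding, 4 were higher and 1 lower by at least 2-fold. The shares of all genes were 3.75% and 4.36%. The median log2 ratio of the 22 was 0.09. The higher genes were cox17, cox11, loxa and loxl2a, and the lower one was hephl1b. All but loxl2a also stand in the list of genes that use or deliver copper, so this count is not a separate result. A further zinc transporter model, SLC39A11, is written in capitals in the table and therefore lay outside the symbol rule. It had 24 normalized reads under DMSO and 27 under BaP, a ratio of 1.12 (0.69 to 1.86).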
